A study of Mus musculus with 16 samples.

Results

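The CXC chemokines described here are 9 genes, Cxcl1, Cxcl2, Cxcl3, Cxcl5, Cxcl9, Cxcl10, Cxcl12, Cxcl14 and Cxcl16. They were taken by name from a table of 49315 genes, and each name matched 1 row. Expression had been measured by bulk RNA sequencing in tail intervertebral discs, with 4 discs of a mouse pooled into 1 library. Wild-type mice, which the series title gives as DBA, an inbred strain, had injured discs in 4 animals and intact discs in 3. Adam8EQ mutants, which carry an altered allele of the membrane metalloprotease gene Adam8, had injured discs in 5 animals and intact discs in 4. The labels describe the EQ allele, the strain of the mutants, the age of the mice, the way of injury and the time after it no further. Every library was a different animal, and all levels are TPM, a transcript abundance scaled by gene length and by library total.

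CXC chemokines are small secreted proteins that attract leukocytes through G protein-coupled receptors. In the mouse, Cxcl1, Cxcl2, Cxcl3 and Cxcl5 carry a glutamate-leucine-arginine (ELR) motif ahead of their first cysteines, act on the receptor Cxcr2 and draw neutrophils. Their genes are classical targets of NF-kappaB downstream of interleukin-1, TNF and interleukin-17, signals to which disc cells are known to respond. Cxcl9 and Cxcl10 are induced by interferons and attract T cells through Cxcr3. Cxcl12 guides cells that carry Cxcr4 and is scavenged by Ackr3, Cxcl16 is made as a membrane protein that proteases such as Adam10 and Adam17 can shed, and Cxcl14 is a ligand of epithelium and connective tissue.

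The proximal promoters of Cxcl1, Cxcl2 and Cxcl3, ligands of Cxcr2, are shown because they share an NF-kappaB element. Whether that element had a part in their levels was not tested. Capitals mark GGGAATTTCC and the TATA-like ATAAAAGG. The sequences are from RefSeq on GRCm38.p6, all on the plus strand, at chr5:90891154-90891229 for Cxcl1, chr5:90903782-90903857 for Cxcl2 and chr5:90786008-90786083 for Cxcl3.
Cxcl1: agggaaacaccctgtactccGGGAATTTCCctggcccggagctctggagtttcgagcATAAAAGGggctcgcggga
Cxcl2: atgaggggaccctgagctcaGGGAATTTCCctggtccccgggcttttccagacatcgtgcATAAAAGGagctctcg
Cxcl3: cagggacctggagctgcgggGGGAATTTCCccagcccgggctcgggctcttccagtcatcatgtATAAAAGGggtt
GGGAATTTCC began 71 bases before the RefSeq start of Cxcl1, 97 before that of Cxcl2 and 73 before that of Cxcl3. Of 32851 promoter windows of 300 bases (250 before to 50 after a start), 0.0883% held GGGAATTTCC on either strand and 1.76% held ATAAAAGG. GGGAATTTCC was taken from the Cxcl1 window, as the form of the NF-kappaB consensus found there, so its presence in Cxcl1 was set in advance. The consensus in any form was found in 4.51% of windows. The stretch of Cxcl10 at chr5:92348975-92349104, on the minus strand, is shown beside them because it holds other elements of both pathways.
Cxcl10: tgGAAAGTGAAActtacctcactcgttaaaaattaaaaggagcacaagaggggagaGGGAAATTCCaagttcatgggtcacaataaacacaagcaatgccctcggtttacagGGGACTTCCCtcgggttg
Here capitals mark GAAANNGAAA, the core of an interferon-stimulated response element, 213 bases before the start, and the NF-kappaB consensus at 159 and 103 bases before it. These were found in 3.44% and 4.51% of all windows, searched on both strands. GGGAATTTCC is itself a form of the NF-kappaB consensus. The windows of Cxcl9, Cxcl12 and Cxcl14 held neither GGGAATTTCC nor the NF-kappaB consensus, and that of Cxcl14 held GAAANNGAAA once, 172 bases before the start. The sequence table gave windows for 7 of the 9 genes, and Cxcl5 and Cxcl16 had none there.

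Each library held between 10196619 and 24837330 implied reads, worked back from its TPM. Transcripts of the disc itself were abundant: the markers of cartilage and annulus summed to 6206 TPM or more and those of the nucleus pulposus to 581.5 TPM or more in each library. The mutated gene Adam8 lay between 0.956 and 2.97 TPM in intact discs and between 3.52 and 264.1 TPM in injured discs. What the EQ allele does to the transcript is not given in the sources used here, so this does not check the genotype labels. Names of the mutant libraries begin with A8 in injured mice 1 and 2 and intact mice 1 and 2 and with M in the others, while all wild-type names begin with D. Naming and genotype therefore cannot be told apart, and injury in mutants is also given within each naming. Among injured wild-type mice, the names of mice 1 and 2 carry consecutive numbers, and so, after a gap, do those of mice 3 and 4. These pairs match the low and high values of the ELR ligands given below. In the wild type and among the A8-named mutants, intact and injured mice also carry separate runs of numbers. There, injury and number cannot be told apart. The M-named mutants, intact and injured, carry an unbroken run. What the numbers stand for is not given in the sources used here, and their part was not tested.

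**Figure D1:**
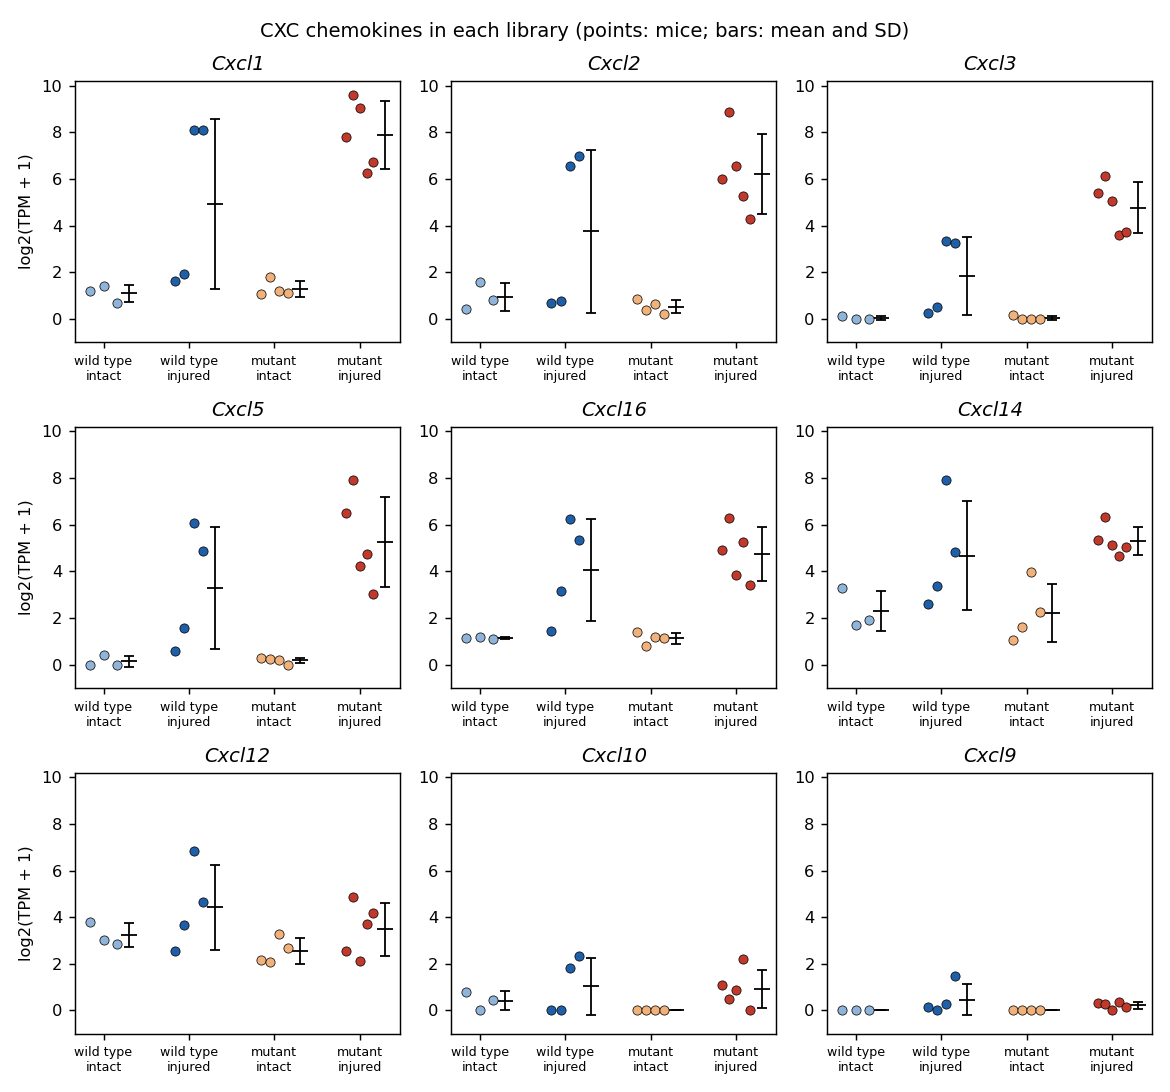
Levels of the 9 CXC chemokines as log2(TPM + 1) in each library, by group, with the mean and SD of the group beside the points. For Cxcl1, Cxcl2, Cxcl3 and Cxcl5 the 5 injured mutants lie above all intact mice, while the 4 injured wild-type mice fall into 2 low and 2 high values.

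Among the Cxcr2 ligands, Cxcl1 (ENSMUSG00000029380, chr5:90891241-90893115, plus strand, protein coding) was the most abundant in injured discs by its group means. In intact discs it lay at 1.27, 1.68 and 0.621 TPM in wild-type mice 1 to 3 and at 1.08, 2.52, 1.26 and 1.16 TPM in mutant mice 1 to 4. Injured wild-type mice 1 to 4 had 2.05, 2.76, 269 and 277 TPM, and injured mutant mice 1 to 5 had 222, 772, 528, 74.6 and 106 TPM. Wild-type mice 1 and 2 stayed close to the intact level, mice 3 and 4 lay within the mutant range, and all 5 mutants were far above every intact library. Mutants averaged 340.4 ± 301 TPM when injured (SD, n = 5), against 1.50 ± 0.679 TPM when intact (SD, n = 4), a ratio of 226.5, and in the wild type the ratio of means was 116. The intact values rested on 3 to 15 implied reads per library, so the ratios are imprecise.

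Cxcl2 (ENSMUSG00000058427, chr5:90903871-90905938, plus strand), a close relative encoded next to Cxcl1, showed the same low pair of injured wild-type mice. It lay at 0.328, 1.98 and 0.750 TPM in intact wild-type mice and at 0.782, 0.304, 0.572 and 0.150 TPM in intact mutants. Injured wild-type mice had 0.619, 0.716, 93.2 and 124 TPM and injured mutants had 63.1, 463, 94.3, 37.8 and 18.3 TPM. In wild-type mice the injured and intact ranges overlapped, because mice 1 and 2 were below the highest intact mouse, and in mutants they did not.

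Cxcl3 (ENSMUSG00000029379, chr5:90786103-90789600, plus strand), another neutrophil attractant, was at 0 in 5 of the 7 intact libraries. The other two held 1 implied read each, at 0.0971 TPM in wild-type mouse 1 and 0.116 TPM in mutant mouse 1. After injury, wild-type mice had 0.183, 0.423, 9.04 and 8.55 TPM, and injured mutants had 41.2, 69.7, 31.8, 11.0 and 12.1 TPM. The lowest injured mutant, mouse 4, lay above the highest injured wild-type mouse, mouse 3, so that the genotypes did not overlap after injury. Transcripts of Cxcl2 and Cxcl3 share an identical stretch of 157 bases, the longest between any pair of the 9 genes, and how such reads were assigned is not given in the sources used here. The values of both are uncertain to that extent.

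Cxcl5 (ENSMUSG00000029371, chr5:90759360-90761624, plus strand), the Cxcr2 ligand at the start of the cluster, held 5 implied reads over all 7 intact libraries, at most 0.337 TPM. Wild-type mice with injured discs had 0.515, 1.99, 66.8 and 28.3 TPM and injured mutants had 88.6, 238, 17.6, 26.2 and 7.07 TPM. Mutants 1 and 2, both named A8, had the highest values of all mice, and mutants 3, 4 and 5 lay below wild-type mouse 4.

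Which of the 9 genes responded to injury was asked in each genotype with limma on log2(TPM + 1), over the 24188 genes that reached 1 TPM in 3 or more libraries. Cxcl9 did not pass that filter and was not tested. Cxcl3, Cxcl5 and Cxcl10 reached at most 0.116, 0.337 and 0.754 TPM in intact discs, so they passed the filter only through injured libraries. The counts and the median change given here are partly set by that. In mutants 6 of the 8 tested CXC chemokines rose, at a limma adjusted p under 0.05, against 30.8% of all tested genes called, 13.1% higher and 17.7% lower. The 4 ELR ligands rose most: Cxcl1 by 6.59 ± 1.23 (SE, limma adjusted p 0.001888), Cxcl2 by 5.68 ± 1.23 (SE, limma adjusted p 0.004148), Cxcl5 by 5.10 ± 1.05 (SE, limma adjusted p 0.003185) and Cxcl3 by 4.73 ± 0.65 (SE, limma adjusted p 0.0004823), on a log2 scale that understates the change of genes near 0. Cxcl16 rose by 3.61 ± 0.78 (SE, limma adjusted p 0.004209) and Cxcl14 by 3.08 ± 0.86 (SE, limma adjusted p 0.01539). Cxcl10 and Cxcl12 did not pass, with changes of 0.93 ± 0.50 (SE, limma adjusted p 0.1752) and 0.92 ± 0.72 (SE, limma adjusted p 0.3554). The median change of the 8 genes was 4.17, beside -0.08 over all tested genes. In bulk tissue, fewer or more cells of a type and less or more RNA per cell cannot be told apart.

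These calls were fewer within each naming and with another method. A fit within 1 naming holds fewer mutants, so an effect of naming cannot be told apart from the loss of mice. With the 4 A8-named mutants alone 4 of the 8 passed, against 14.8% of all tested genes called, and with the 5 M-named mutants alone 1 did, against 3.0%. The one in M was Cxcl3, at 4.11 (limma adjusted p 0.04218), and within A8 it changed by 5.69 (limma adjusted p 0.01651). Cxcl1 changed by 7.26 (limma adjusted p 0.04634) within A8 and by 6.20 (limma adjusted p 0.0913) within M. For Cxcl5 the values were 6.94 (limma adjusted p 0.02351) and 3.89 (limma adjusted p 0.1201), and for Cxcl16 4.51 (limma adjusted p 0.04351) and 2.997 (limma adjusted p 0.148). Cxcl2 passed in neither, at 6.82 (limma adjusted p 0.05312) and 4.95 (limma adjusted p 0.131). With limma's voom on the implied reads 2 of the 8 passed, Cxcl3 and Cxcl16, against 32.5% of all tested genes, and Cxcl1 had a limma adjusted p of 0.05536. All 8 changes kept a positive sign in each of these settings.

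In the wild type, 0 of the 8 passed, against 0.116% of all tested genes, and 5 of the 8 had an unadjusted p under 0.05, against 17.2%. The changes were all positive, from 0.63 ± 0.57 (SE, limma adjusted p 0.5757) for Cxcl10 to 3.83 ± 1.40 (SE, limma adjusted p 0.2075) for Cxcl1. Cxcl16 had the smallest p, at 2.90 ± 0.89 (SE, limma adjusted p 0.1621), and without injured wild-type mouse 1 it passed at 3.77 (limma adjusted p 0.03234). For Cxcl1, Cxcl3, Cxcl5 and Cxcl16 every injured wild-type mouse lay above every intact one, as was the case, in that direction, for 9.22% of all tested genes. In mutants this held for the 6 called chemokines and for 12.0% of tested genes. In the wild type the gap was narrow and rested on few reads. For Cxcl1 the lowest injured mouse held 12 implied reads and the highest intact mouse 10. The lowest injured and the highest intact wild-type mouse held 2 and 1 reads for Cxcl3, 3 and 2 for Cxcl5, and 16 and 12 for Cxcl16.

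**Figure D2:**
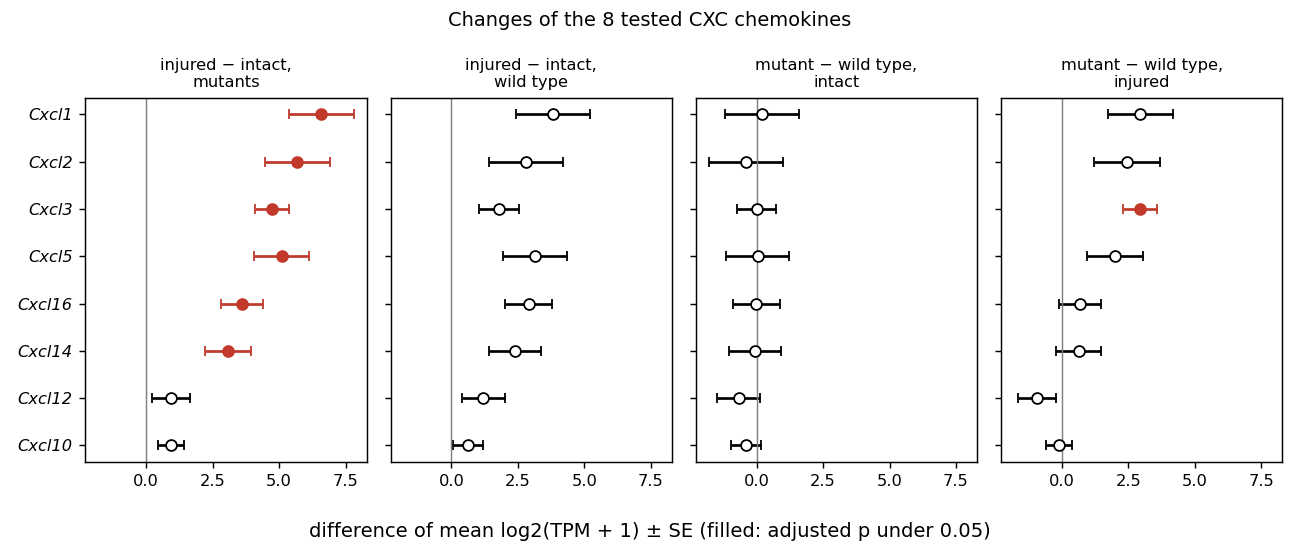
Difference of group means in log2(TPM + 1), with its SE, for the 8 tested CXC chemokines in 4 comparisons, filled where the limma adjusted p was under 0.05. The 6 filled points of injury in mutants contrast with open points in the wild type, where the same genes changed by 1.79 to 3.83, and Cxcl3 is the filled point between genotypes in injured discs.

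Cxcl16 (ENSMUSG00000018920, chr11:70453983-70459984, minus strand), the membrane-bound ligand of Cxcr6, was steady in intact discs, at 1.24, 1.25 and 1.16 TPM in the wild type and 1.61, 0.729, 1.27 and 1.23 TPM in mutants. In the injured wild type the values were 1.70, 7.84, 75.4 and 40.1 TPM and injured mutants had 29.0, 76.6, 13.2, 37.4 and 9.65 TPM. The injured ranges of the genotypes overlapped, and the ratio of injured to intact means was 25.8 in the wild type and 27.4 in mutants. The intact values rested on 7 to 13 implied reads per library, so these ratios are imprecise. Cxcl16 overlaps Zmynd15 on the other strand, and the use of strand in counting is not given in the sources used here.

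Cxcl14 (ENSMUSG00000021508, chr13:56288643-56296551, minus strand), the ligand of connective tissue and epithelium, was already present in intact discs, at 8.75, 2.24 and 2.77 TPM in the wild type and 1.11, 2.07, 14.6 and 3.74 TPM in mutants. Injured wild-type mice had 5.09, 9.34, 239.9 and 27.1 TPM and injured mutants had 39.6, 79.1, 33.6, 24.5 and 32.3 TPM. The highest value of all belonged to injured wild-type mouse 3, and the 5 injured mutants lay above every intact mouse. Without intact mutant mouse 1, the lowest of its group, the rise in mutants was 2.69 and no longer passed (limma adjusted p 0.05132). It also missed the threshold within A8, at 4.49 (limma adjusted p 0.0564), and within M, at 1.84 (limma adjusted p 0.3782).

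Cxcl12 (ENSMUSG00000061353, chr6:117168535-117181367, plus strand), the ligand of Cxcr4, passed in no comparison. It lay at 13.0, 7.03 and 6.31 TPM in intact wild-type mice and 3.51, 3.27, 8.78 and 5.31 TPM in intact mutants. After injury, wild-type mice had 4.85, 11.6, 114 and 23.9 TPM and injured mutants had 4.79, 28.0, 3.37, 11.9 and 16.9 TPM. Injured mutants 1 and 3 lay within the intact mutant range, although their Cxcl1 was at 222 and 528 TPM, and wild-type mouse 3 stood apart as the highest.

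The interferon-induced ligands stayed low. Cxcl10 (ENSMUSG00000034855, chr5:92346638-92348889, minus strand) was at 0.754, 0 and 0.344 TPM in intact wild-type mice and at 0 in all 4 intact mutants. Wild-type mice with injured discs had 0, 0, 2.54 and 4.09 TPM and injured mutants had 1.15, 0.392, 0.816, 3.57 and 0 TPM, at most 33 implied reads, and the gene lies within the span of Art3, which runs on the other strand. Cxcl9 (ENSMUSG00000029417, chr5:92321347-92328079, minus strand) had 0 reads in all 7 intact libraries, and 3 reads, the limit that a count of 0 allows for counting error alone, equal 0.172 to 0.403 TPM across the 16 libraries. In injured discs Cxcl9 reached 1.76 TPM, or 19 reads, in wild-type mouse 4 and 0 to 4 reads in the other 8 mice. The 6 T-cell markers summed to at most 2.72 TPM in intact mice and 9.49 TPM in injured mice, highest in wild-type mouse 3, and Cd3d and Cd3e were at 0 in all intact mice. Cxcl10 passed in no comparison.

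Whether the mutation changed the chemokines was asked in intact and in injured discs. In intact discs 0 of the 8 passed, against 0.0165% of all tested genes, and 0 had an unadjusted p under 0.05, against 3.78%. The differences, mutant minus wild type, ran from -0.67 ± 0.81 for Cxcl12 to 0.19 ± 1.40 for Cxcl1 (SE), and the ranges of all 8 overlapped, while 2.77% of tested genes had ranges apart with mutants higher and 3.41% with mutants lower. In injured discs 1 of the 8 passed, against 0.918% of all tested genes and 0.190% called higher. This was Cxcl3, higher in mutants by 2.94 ± 0.65 (SE, limma adjusted p 0.04898). The injured mutants averaged 33.1 ± 24.2 TPM (SD, n = 5), and the injured wild type averaged 4.55 ± 4.91 TPM (SD, n = 4). Among all tested genes 0.905% had ranges apart in that direction. An unadjusted p under 0.05 was reached by 2 of the 8, against 20.3% of all.

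The Cxcl3 call rested near the threshold. It was lost in 24 of 29 alternatives, among them the fit of only the 2 injured groups (limma adjusted p 0.2313) and the replicate block (limma adjusted p 0.1092), with adjusted p from 0.0109 to 0.2313 and a positive difference throughout. The other ELR ligands had positive differences that did not pass, Cxcl1 of 2.95 ± 1.23 (SE, limma adjusted p 0.1944), Cxcl2 of 2.45 ± 1.23 (SE, limma adjusted p 0.2785) and Cxcl5 of 1.99 ± 1.05 (SE, limma adjusted p 0.2996). Without injured wild-type mouse 3, Cxcl1 passed at 4.00 (limma adjusted p 0.04903). Cxcl12 lay in the other direction, at -0.95 ± 0.72 (SE, limma adjusted p 0.479).

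Whether injury acted more strongly in one genotype was tested as an interaction. By limma 0 of the 8 passed, 0.00% of all tested genes did, and 1 of the 8 had an unadjusted p under 0.05, against 8.18%. That gene was Cxcl3, at 2.95 ± 0.99 (SE, limma adjusted p 0.5034), followed by Cxcl2 at 2.86 ± 1.86 (SE, limma adjusted p 0.7177) and Cxcl1 at 2.76 ± 1.86 (SE, limma adjusted p 0.7291). A larger rise of the ELR ligands in mutants was not shown by this test. The injured and intact groups enter several of these comparisons, so that their results share samples. limma's voom also called 0 of the 8.

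**Figure D3:**
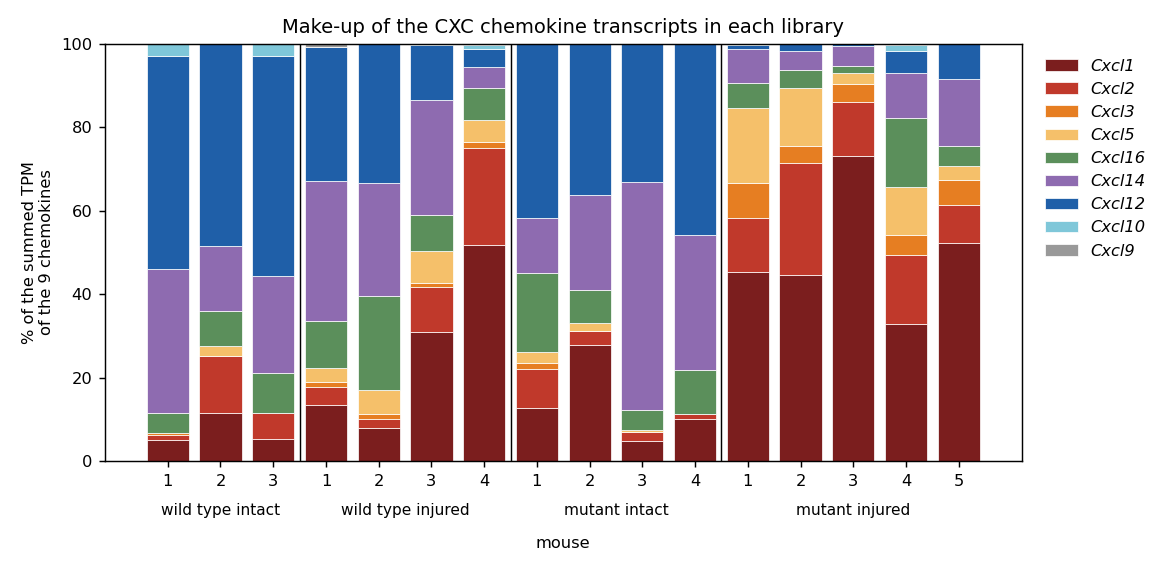
Share of each gene, in percent, in the summed TPM of the 9 CXC chemokines, 1 bar per mouse in 4 groups. The ELR ligands (reds to yellow) take 6.67% to 33.0% in intact mice and 65.8% to 93.0% in injured mutants, and injured wild-type mice 1 and 2 resemble the intact bars at 22.3% and 17.0%.

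The make-up of the chemokine transcripts is given as shares of their summed TPM, with no test. The 9 genes summed to 8.42 to 26.6 TPM in the 7 intact libraries and to 202.1 to 1727 TPM in injured mutants. In intact discs Cxcl12 and Cxcl14 had the highest mean levels of the 9 in both genotypes, and in injured discs Cxcl1 did. Cxcl12 alone took 33.0% to 52.8% of the sum in intact mice and 0.466% to 8.36% in injured mutants. The ELR ligands took 50.4% in injured wild-type mouse 3 and 81.9% in mouse 4. Among neighbours in the order of mean levels, the ranges were apart only between Cxcl14 and Cxcl16 in intact wild-type mice and between Cxcl12 and Cxcl1 in intact mutants, while in both injured groups all neighbours overlapped.

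Within the ELR ligands, Cxcl1 made up 49.9% to 78.6% of their sum in injured mutants and 46.9% to 63.3% in injured wild-type mice. Cxcl5 took 21.4% and 15.4% in the A8-named mutants 1 and 2 and 2.62%, 17.5% and 4.94% in the M-named mutants 3 to 5. Cxcl3 took 4.52% to 9.94% in injured mutants. In injured wild-type mice 3 and 4 it took 2.06% and 1.95%, at 105 and 107 implied reads, and in mice 1 and 2 it took 5.44% and 7.19%, at 2 and 4 reads. These shares are a description, chosen after the values were seen, with no test.

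The 4 ELR genes among the 9 lie within 146579 bases on chromosome 5 (GRCm38). The 7 CXC genes there are, in order, Cxcl5, Ppbp, Pf4, Cxcl3, Cxcl15, Cxcl1 and Cxcl2. The levels and shares given above for the ELR ligands cover only the 4 among the 9, without Ppbp and Cxcl15. Of the 6 CXC ligands beyond the 9, 4 were tested. In injured mutants 2 of these rose and 1 fell, where 13.1% of all tested genes rose and 17.7% fell. Both that rose lie in this cluster: Pf4, known from platelets and macrophages, by 5.41 ± 0.78 (SE, limma adjusted p 0.0006195), and Ppbp, known from platelets, by 2.65 ± 0.68 (SE, limma adjusted p 0.009692). Pf4 lay at 3.37, 1.31, 4.92 and 0.430 TPM in intact and 143, 385, 117, 133 and 39.1 TPM in injured mutants, with no overlap, and in the wild type it changed by 2.88 ± 0.89 (SE, limma adjusted p 0.1626). Cxcl13, the ligand of Cxcr5 that attracts B cells, fell by 2.76 ± 0.73 in mutants (SE, limma adjusted p 0.01188), while Cxcl17 did not pass (limma adjusted p 0.1337). Cxcl15 was at 0 in all libraries except injured mutant 2, and Cxcl11, annotated as a polymorphic pseudogene, stayed at or below 0.238 TPM. Pf4 and Cxcl13 also passed within each naming, and Ppbp in neither, where 14.8% of all tested genes were called within A8 and 3.0% within M. In the wild type 0 of the 4 passed, against 0.116% of all tested genes.

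**Figure D4:**
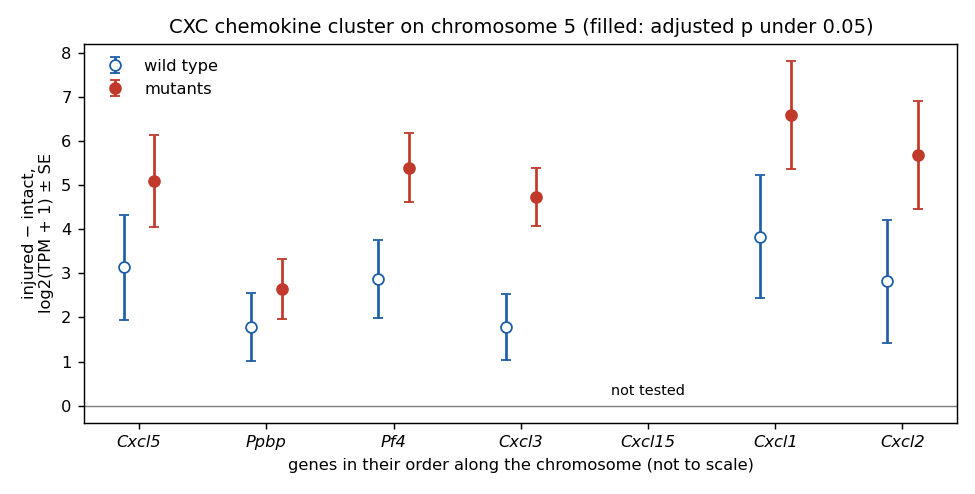
Injured minus intact difference in log2(TPM + 1), with its SE, for the 7 genes of the chromosome 5 cluster in their order along the chromosome, filled where the limma adjusted p was under 0.05. All 6 tested genes have filled points in mutants, from 2.65 to 6.59, and open points in the wild type.

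Of the 8 CXC receptors and scavengers, 6 were tested, of which 3 rose in injured mutants, against 13.1% of all tested genes, and 0 passed in the wild type, against 0.116%. Within A8 1 of the 6 passed, Cxcr4, against 14.8% of all tested genes, and within M 0 did, against 3.0%. Both counts are near those shares. Cxcr4, the receptor of Cxcl12, rose by 4.30 ± 0.79 (SE, limma adjusted p 0.001806), from 3.13, 1.22, 1.47 and 2.91 TPM in intact to 88.2, 237, 32.0, 52.0 and 20.6 TPM in injured mutants, and changed by 3.13 ± 0.90 (SE, limma adjusted p 0.1461) in the wild type. Its ranges were apart in both genotypes. Ackr3, the scavenger of Cxcl12, rose by 2.15 ± 0.45 (SE, limma adjusted p 0.003589) in mutants. Cxcr2, the receptor of the ELR ligands, rose by 2.60 ± 0.92 (SE, limma adjusted p 0.04323), but its injured mutant values were 4.08, 85.5, 1.31, 5.56 and 0.617 TPM, so that mouse 2 stood far above the others, and without it the change was 1.66 (limma adjusted p 0.05402). The Cxcr2 values of injured wild-type mice were 0.105, 0.243, 6.72 and 4.77 TPM. Cxcr6, the receptor of Cxcl16, stayed between 12.7 and 23.4 TPM in all 16 libraries. Cxcr3, the receptor of Cxcl9 and Cxcl10, was at or below 1.20 TPM, which was too low to test.

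Of 5 proteases that cut CXC chemokines, 2 rose in mutants, where 30.8% of all tested genes were called and 13.1% rose. In the wild type 0 passed, against 0.116%. Within A8 Adam17 and Mmp9 passed, against 14.8% of all tested genes, and within M 0 of the 5 did, against 3.0%. Adam17 rose by 1.06 ± 0.20 (SE, limma adjusted p 0.002052) and Adam10, the main sheddase of Cxcl16, by 0.50 ± 0.14 (SE, limma adjusted p 0.0178). Mmp9, a neutrophil gelatinase, did not pass with all mutants (limma adjusted p 0.09147).

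Of 13 inducers and regulators of the ELR ligands, 10 rose in injured mutants, against 13.1% of all tested genes, and 1 in the wild type, against 0.116% called, with median changes of 1.39 and 0.75. Within A8 8 of the 13 rose, against 6.65% of all tested genes, and within M 1 did, Cebpd, against 1.32%. The cytokine genes Il1b and Tnf rose in mutants by 3.30 ± 0.98 (SE, limma adjusted p 0.02024) and 2.84 ± 0.68 (SE, limma adjusted p 0.006932). Il1b lay at 3.52, 3.69, 43.1 and 42.1 TPM in injured wild-type mice and at 24.8, 311, 19.7, 32.5 and 2.96 TPM in injured mutants. Mutant 5 had little Il1b beside 106 TPM of Cxcl1. Nfkbiz, an NF-kappaB cofactor, rose by 2.13 ± 0.34 (SE, limma adjusted p 0.0009661), and the inhibitor Nfkbia by 1.39 ± 0.32 (SE, limma adjusted p 0.005831). Zc3h12a, an RNase that degrades chemokine mRNAs, rose by 2.27 ± 0.46 (SE, limma adjusted p 0.003017). The gene that passed in both genotypes was Cebpd, a transcription factor of the acute phase, at 1.54 ± 0.27 (SE, limma adjusted p 0.0491) in the wild type and 2.38 ± 0.24 (SE, limma adjusted p 0.0001172) in mutants. Its injured wild-type values were 68.4, 84.6, 105 and 83.4 TPM against 22.7, 32.9 and 31.0 TPM in intact mice, so that wild-type mice 1 and 2 were above the intact range in Cebpd while their Cxcl1 was near it. With the replicate block or voom 0 of the 13 passed in the wild type, against 0.0207% and 0.0166% of all tested genes.

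Of 8 tested genes of the interferon pathway behind Cxcl9 and Cxcl10, 2 rose and 1 fell in mutants, a count near the 30.8% called among all tested genes. Within either naming 0 of the 8 passed, against 14.8% of all tested genes within A8 and 3.0% within M. In the wild type 0 passed, against 0.116%, and the median change was -0.48, against -0.05 in mutants. Gbp2 and Ifngr2 rose by 1.14 ± 0.41 (SE, limma adjusted p 0.04506) and 0.96 ± 0.30 (SE, limma adjusted p 0.02432). Irf1, a transcription factor induced by interferon-gamma, fell by 0.64 ± 0.18 (SE, limma adjusted p 0.01446). Ifng itself was at 0 in 15 of 16 libraries.

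**Figure D5:**
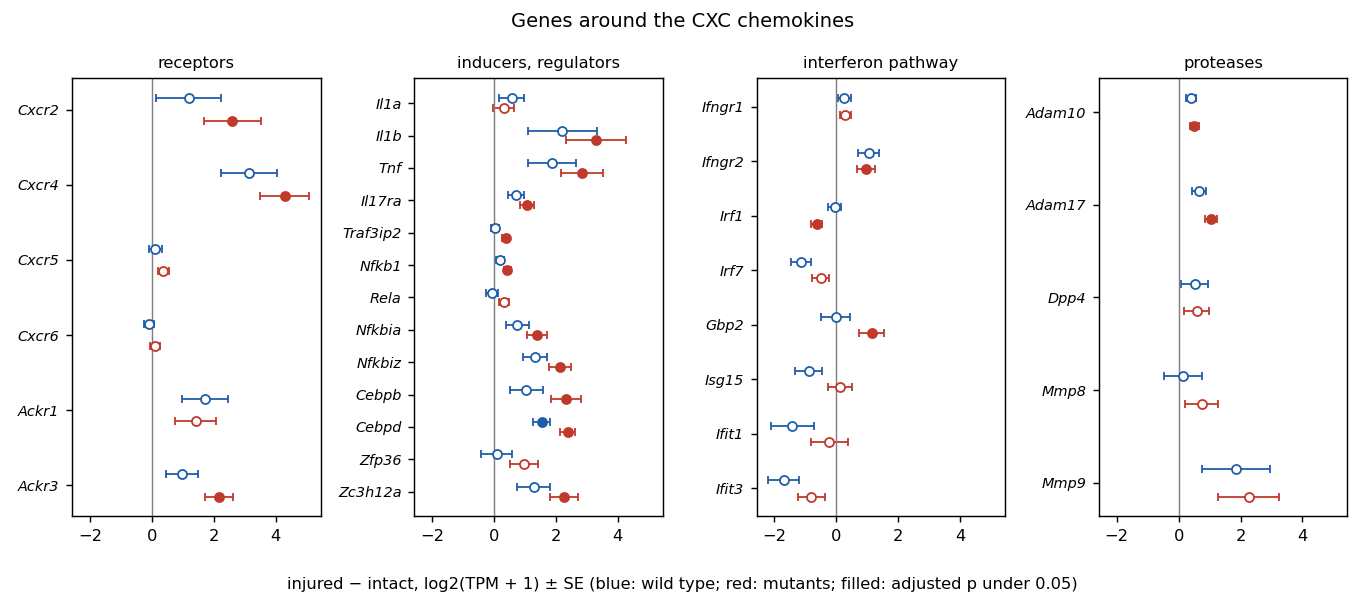
Injured minus intact difference in log2(TPM + 1), with its SE, for the tested receptors, inducers and regulators, interferon pathway genes and proteases, in wild type (blue) and mutants (red), filled where the limma adjusted p was under 0.05. The regulators lie right of 0 in mutants with 10 of 13 filled, while the interferon genes lie on both sides.

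Some markers of other cells also changed after injury, and their part in the results was not tested. Among all tested genes 13.1% rose and 17.7% fell in injured mutants, and 11.5% rose by voom. Within A8 6.65% rose and 8.16% fell, and within M only 1.32% rose and 1.67% fell, so few calls of any gene occur there. The 7 macrophage markers summed to 110.9 to 162.8 TPM in intact mice, to 153.4 to 1309 TPM in injured wild-type mice and to 328 to 1916 TPM in injured mutants, where 6 of 7 rose, 5 of 7 within A8 and 0 within M. The 10 neutrophil markers summed to 6.06 to 19.0 TPM in intact mice, to 11.1 to 181.5 TPM in injured wild-type mice and to 18.3 to 928.5 TPM in injured mutants. Of the 7 neutrophil markers tested, 3 rose in mutants (S100a8, S100a9 and Csf3r), 2 within A8 and 0 within M or by voom, while Elane was at 0 in all 5 injured mutants and Mpo in all wild-type mice. Mutant 2 had the highest sums of both lists and was also the highest of the 9 injured mice in Cxcl1, Cxcl2, Cxcl3, Cxcl5 and Cxcl16. Mutant 3, with 528 TPM of Cxcl1, had a neutrophil sum of 44.2 TPM and a macrophage sum of 423.9 TPM. Mutant 4, with only 74.6 TPM of Cxcl1, had higher sums, of 85.55 and 995.6 TPM. Injured wild-type mice 1 and 2, the low pair in the ELR ligands, had neutrophil sums of 11.1 and 12.3 TPM and macrophage sums of 153.4 and 189.8 TPM. Without mutant 2, all 6 calls of injury in mutants held. The 5 endothelial markers, of which 0 passed, were highest in injured wild-type mouse 3 at 173.3 TPM, the mouse that was highest in Cxcl12 and Cxcl14. The nucleus pulposus markers fell in 4 of 6 cases in mutants, 3 within A8 and 0 within M, from sums of 7024 to 14904 TPM in intact to 581.5 to 7023 TPM in injured mutants.

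For each chemokine the genes of most similar profile were sought, as the smallest mean absolute difference of log2(TPM + 1) over the 16 libraries after each gene was centred on its own mean. Cxcl1 was closest to Mmp3, a stromelysin, at 0.446, against a mean absolute deviation of Cxcl1 itself of 3.256. Mmp3 lay at 7078, 15323, 8744, 1713 and 1692 TPM in injured mutants and 92.2, 275, 8725 and 7330.1 TPM in injured wild-type mice, with the same low pair of wild-type mice. Cxcl2 was closest to Saa3, an acute-phase gene, at 0.487. Cxcl3 was closest to Errfi1, a feedback inhibitor of the EGF receptor, at 0.475, and to the cytokine Lif at 0.487. Cxcl5 was closest to Clec4d, a myeloid lectin, at 0.352, and next to Adam8 at 0.401, against its own deviation of 2.444.

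The other ligands had other neighbours. Cxcl16 was closest to Apobec1 at 0.237 and Cd84 at 0.244, against 1.817 for Cxcl16 itself. Cxcl12 was closest to the endothelial genes Pecam1 and Clec14a, both at 0.299, against 0.951. Cxcl14 was closest to Sema7a, a membrane semaphorin, at 0.416, against 1.586. Cxcl10 was closest to Parp14 at 0.320 and the antiviral gene Oas2 at 0.323, against 0.672, so that the likeness was weak for this gene of low level.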

How the data were processed

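Expression reached GEO as TPM, deposited by the authors in a single table, where every mouse has a column that sums to 1000000. Per the labels' protocols, total RNA was depleted of ribosomal RNA before library preparation. Per the submitters' processing notes, bcl2fastq 2.20 and GRCm38 were used, and aligner, counting and annotation are not given in the sources used here. Groups came from the sample titles. Genes that reached 1 TPM in 3 or more of 16 libraries were tested with limma 3.58.1 (R 4.3.3; lmFit, eBayes with trend) on log2(TPM + 1), in 1 fit of the 4 groups. Errors of changes are moderated standard errors, and p-values were adjusted by Benjamini-Hochberg over all tested genes, with a threshold of 0.05. The script was tested on simulated data. Python 3.11.15 was used for the rest.

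Positions and exon lengths came from GENCODE M21 (GRCm38), which held 49056 of the 49315 identifiers (99.5%). TPM times exon length, divided by what 1 read is worth, put 94.1% to 95.0% of values under 20 reads within 0.05 of a whole number, and gave the implied reads. These are approximations, used for depth and 1 added alternative. Members and gene lists were chosen with earlier results of these data known. The genes open to naming were all 9 chemokines, listed pathway genes irrespective of outcome, and the 2 most similar profiles per chemokine. Not all of the listed genes and similar profiles are named above, and each regulator given with its change had passed in mutants. A listed gene of the interferon pathway is not reported here. Same-numbered mice are different animals, and no pairing was used. Alternatives were a pseudocount of 0.1, no filter, a mean of at least 5 TPM, quantile normalization, scaling by median of ratios, sample weights, an untrended eBayes, fitting only the compared groups, adding a replicate block, mutants of 1 naming, naming as covariate and leaving out each mouse.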

Additional observations from a re-analysis of the deposited data

Results flagged for a closer look

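Of 27 groups of 4 or 5 mice, 9 genes in 3 groups, those of Cxcl9 and Cxcl10 in intact mutants were at 0 throughout and could not be examined. Among the others 2 held a mouse that stood apart from the rest on the log2(TPM + 1) scale, and chance alone marks about 1 group in 20. Cxcl1 was at 2.52 TPM in intact mutant mouse 2, above 1.08 to 1.26 TPM in the other 3, at 15 implied reads. Cxcl3 was at 0.116 TPM in intact mutant mouse 1, which is 1 implied read, and at 0 in the other 3. With 3 mice at 0 any value above 0 is marked, so the rate of 1 in 20 does not apply to Cxcl3 there.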

How the results depend on the processing

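Calls of injury in mutants numbered 6 of 8 in 25 of 29 alternatives, 4 with A8-named mutants alone, 2 with voom on the implied reads, which was added after the data were seen, and 1 with M-named mutants alone; leaving out 1 mouse gave 5 to 6. Cxcl3 passed there in all 29. The count for injury in the wild type was 0 throughout, except 1 without injured wild-type mouse 1, so 0 to 1 over the left-out mice. Between genotypes in injured discs the count of 1 became 0 with pseudocount 0.1, no filter, quantile normalization, median-of-ratios scaling, untrended eBayes, only the groups compared, the replicate block, naming as covariate, either naming alone and voom, and it was 0 to 2 when 1 mouse was left out. The counts of 0 in intact discs and for the interaction did not change. A mean of at least 5 TPM left out Cxcl10.

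The replicate block changed no other count of chemokines, but over all genes it gave 6191 calls for injury in mutants, 5 in the wild type, 2 in intact discs and 11 in injured discs; of 21 same-numbered pairs, 1 had a correlation of deviations over 0.1 (-0.217 to 0.151). Over all genes the count of calls was 7438 for injury in mutants (725 to 8559 over the alternatives), 28 in the wild type (2 to 452), 4 in intact discs (1 to 8), 222 in injured discs (2 to 2253) and 0 for the interaction (0 to 15). The share of higher calls for injury in mutants was 42.6%, 52.1% with median-of-ratios scaling and 35.4% with voom, so the more frequent direction turned with the former. That between injured genotypes was 20.7%, against 47.5% with median-of-ratios scaling, and in the wild type 92.9%, against 77.1% with quantile normalization.

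Signs turned only in differences that never passed; the cause was not tested. Between genotypes in injured discs Cxcl10 turned from -0.12 to 0.34 with pseudocount 0.1, 0.11 with the replicate block and 0.35 with voom (-0.46 to 0.32 without 1 mouse), while Cxcl14 ran from -0.0642 to 1.70 and Cxcl16 from -0.18 to 1.42 without 1 mouse. In intact discs Cxcl14 turned to 0.0005 with quantile normalization and 0.81 with M-named mutants (-0.65 to 0.42 without 1 mouse). Cxcl16 turned to 0.0573 with quantile normalization, 0.35 with naming as covariate and 0.0247 with M-named mutants (-0.10 to 0.10). Cxcl3 turned to 0.0796 with quantile normalization, 0.0033 with the replicate block, 0.47 with naming as covariate and 0.0343 with A8-named mutants (-0.0446 to 0.0395). Cxcl2 turned to 0.19 with naming as covariate, Cxcl5 to -0.0336 with M-named mutants (-0.0295 to 0.18), and Cxcl1 ran from -0.0118 to 0.35 without 1 mouse. In the interaction Cxcl12 turned to 0.24 with sample weights and 0.37 with A8-named mutants (-0.90 to 0.53), Cxcl14 to -0.53 with M-named mutants, Cxcl10 ran from -0.052 to 0.73 and Cxcl16 from -0.17 to 1.44 without 1 mouse.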

Other observations

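Cxcl13, the chemokine of B-cell follicles, divided the intact mutants by the naming of their libraries. It lay at 58.0 and 73.6 TPM in the A8-named mice 1 and 2 and at 5.91 and 12.9 TPM in the M-named mice 3 and 4, beside 15.6, 9.29 and 11.5 TPM in the intact wild type. In injured mutants 1 to 5 it was 1.05, 20.7, 1.86, 1.81 and 1.09 TPM, so that mouse 2 alone lay within the intact range. Injured wild-type mice had 17.0, 17.7, 7.60 and 11.9 TPM, a change of 0.11 ± 0.84 (SE, limma adjusted p 0.959). For the interaction of injury and genotype the estimate was -2.87 ± 1.11, with limma adjusted p 0.5403.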
